A study of Caenorhabditis elegans with 12 samples.

Results

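The *nlp* genes of *Caenorhabditis elegans* encode neuropeptide-like protein precursors, and 82 such genes were measured here among the 25478 genes that the array annotation names. Members were the 78 genes whose symbol is *nlp* and a number, together with *pdf-1*, *pdf-2*, *snet-1* and *ntc-1*, which encode neuropeptide precursors under other names. Each of the 82 was read by 1 probe set that carries exactly 1 gene symbol. The 11 genes *nlp-24* to *nlp-34*, best known as antimicrobial peptide genes of the epidermis, were kept apart from the other 71, which are called neuronal here although some of them are also active outside neurons. Members were picked by gene name, with earlier results of these data already known.

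Neuropeptides are cut from longer precursors by proprotein convertases, trimmed by carboxypeptidases and often amidated before they are released from dense core vesicles. They act mostly on G protein-coupled receptors of other cells and set slow states of the animal such as arousal, sleep, feeding and egg laying. In the *C. elegans* nervous system the *nlp* family stands beside the FMRFamide-like (*flp*) and insulin-like (*ins*) peptide families. In the epidermis, peptides of the *nlp-29* cluster are known to be made after fungal infection or wounding, through a p38 kinase cascade.

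RNA came from pellets of whole wild-type N2 larvae at the L3 stage, grown at 20 °C on bacteria that deliver double-stranded RNA. The strong *nuo-5* RNAi group was depleted of *nuo-5* in the filial generation, the mild *nuo-5* RNAi group in the parental generation, and the control group was fed bacteria with the empty vector pL4440. Each group holds 4 biological replicates with the numbers I, III, IV and V and 1 array per replicate, and the 4 values of a group are given in that order below. Strength and generation change together between strong and mild RNAi, so their effects cannot be told apart, and no label gives the generation of the control larvae. The shared protocol text mentions lutein (1 µM) and DMSO (0.25%) as plate supplements, while no label assigns lutein to any of these 12 samples. Per the study's text, its authors dropped another replicate that was unlike the rest. Expression was read on Affymetrix Gene ST arrays, whose version is given differently in the labels and the methods. The deposited values are log2 signals, so that a difference of 1 is a 2-fold difference in signal. Because probes differ in brightness, levels of different genes are not set against each other.

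*nuo-5*, the RNAi target and a core subunit of respiratory complex I, had log2 signals of 6.95, 7.09, 7.22 and 6.89 on the strong arrays, 7.15, 7.56, 7.25 and 7.66 on the mild arrays and 8.29, 8.56, 8.43 and 8.42 on the control arrays. All 8 RNAi arrays were below the lowest control array, whereas strong and mild arrays overlapped. The log2 difference from control was −1.39 under strong RNAi (limma, adjusted p = 0.000154) and −1.02 under mild RNAi (adjusted p = 0.0471). The exact two-sided permutation test gave p = 0.0286 for both, the smallest that 4 against 4 arrays allow when replicate numbers are not kept together. The mild call was lost with the replicate number as a block (adjusted p = 0.152) and when any 1 of the 12 arrays was left out (adjusted p = 0.0512 to 0.277), while the difference stayed between −1.11 and −0.94. Arrays of a group correlated at 0.96 or above. The labels give whole larvae, and 17 neuron markers were measured at control means between 5.11 and 10.40. They also give the L3 stage for all groups, yet the median of 19 oocyte and adult genes, which include the yolk protein gene *vit-2*, stood 2.54, 3.07 and 2.40 above the control mean on strong arrays I, IV and V, and at −0.03 on strong array III. For this list the mild group ran from −0.19 to 0.15 and the control group from −0.20 to 0.27. In bulk RNA of whole animals, a change in the number of cells of a type and a change in RNA per cell cannot be told apart.

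Under strong *nuo-5* RNAi, neuropeptide genes of neurons were higher as a group. Of the 71 neuronal members, 46 were higher than in control and 0 were lower at an adjusted p under 0.05 in limma, and 25 were not called. Among all 29317 probe sets, 8.04% were called higher and 5.62% lower in this comparison. The called members differed from control by 0.45 to 2.08 on the log2 scale, that is 1.37-fold to 4.22-fold, with standard errors of 0.11 to 0.37, and 33 of them by at least 1. The median log2 difference over all 71 was 0.94, beside −0.05 over all probe sets. Positive were 64 of 71, beside 12471 of the 29317 probe sets. In 48 of the 71 the 4 strong arrays all lay above the 4 control arrays, which held for 9.39% of all probe sets. At an unadjusted p under 0.05 stood 57, beside 8032 of all probe sets.

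**Figure D1:**
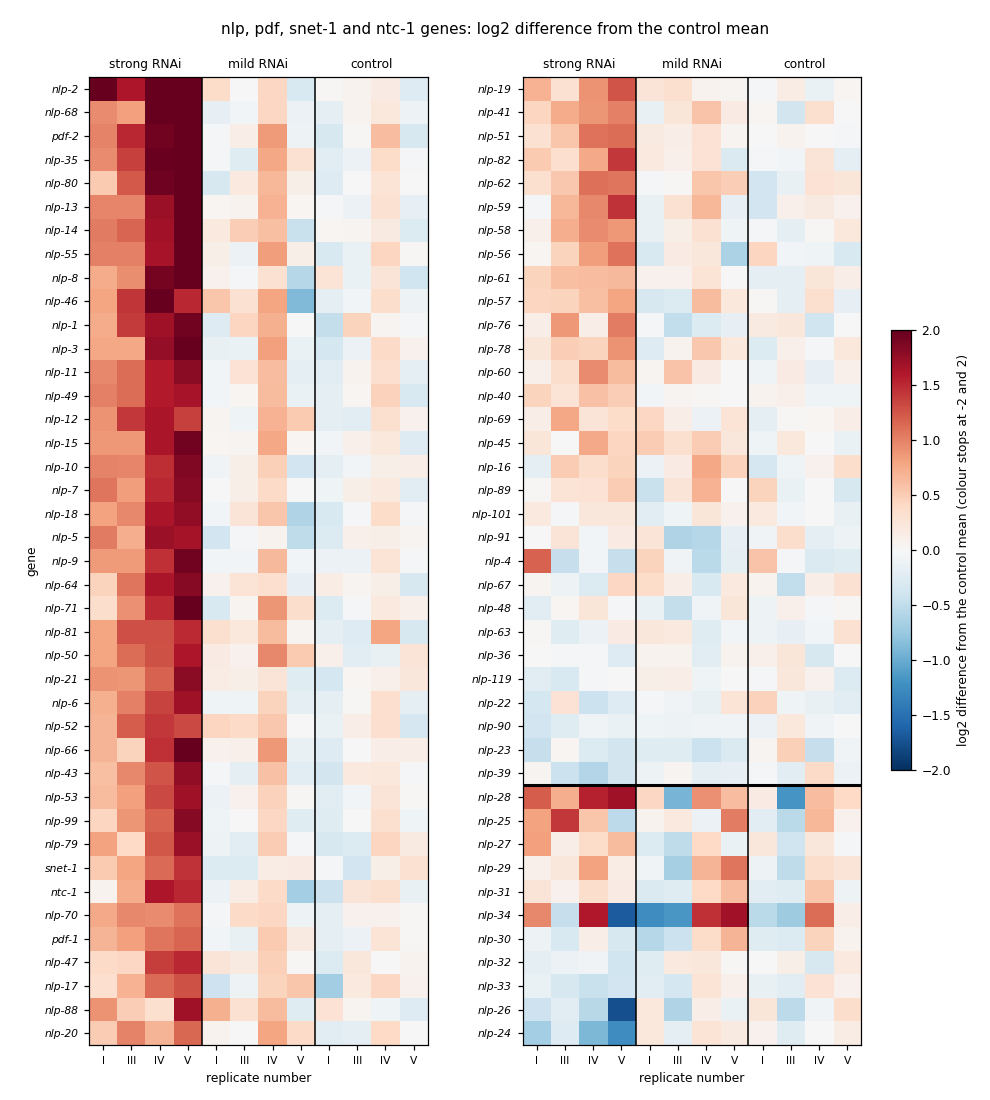
Log2 difference of each array from the control mean for the 82 genes, ordered by the difference between strong RNAi and control, with strong, mild and control arrays from left to right and replicate numbers below. Colours stop at −2 and 2, the black line sets *nlp-24* to *nlp-34* apart at the lower right, and the red block covers the strong arrays for most neuronal genes, deepest on arrays IV and V.

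*nlp-2* showed the widest difference of all members. It encodes RPamide peptides, relatives of gonadotropin-releasing and adipokinetic hormones, and is known to promote wakefulness. Its log2 signals were 6.13, 5.63, 6.20 and 6.43 on the strong arrays, 4.39, 4.02, 4.43 and 3.72 on the mild arrays and 4.04, 4.09, 4.19 and 3.76 on the control arrays. All strong arrays lay more than 1 unit above any mild or control array, and mild and control arrays overlapped. The log2 difference was 2.08 ± 0.20 against control (SE, adjusted p = 0.000112) and 1.96 against mild RNAi (adjusted p = 0.000406). In the reference gene table *nlp-45*, *nlp-22*, *nlp-23* and *nlp-2* follow each other as neighbouring protein-coding genes. The other RPamide genes, *nlp-22* and *nlp-23*, were both dim, with control means of 2.90 and 2.92. *nlp-22*, a sleep-promoting peptide gene of the RIA interneurons, had 2.55, 3.19, 2.47 and 2.64 on the strong arrays, 2.86, 2.83, 2.76 and 3.18 on the mild arrays and 3.36, 2.81, 2.75 and 2.69 on the control arrays. These groups overlapped, and its log2 difference between strong RNAi and control was −0.19 (95% interval −0.60 to 0.22, adjusted p = 0.576). For *nlp-23* the difference was −0.27 (95% interval −0.66 to 0.12, adjusted p = 0.375). *nlp-47*, which encodes an adipokinetic and gonadotropin-releasing hormone-like peptide, had 4.98, 5.01, 5.97 and 6.10 on the strong arrays, 4.85, 4.77, 5.07 and 4.62 on the mild arrays and 4.31, 4.81, 4.58 and 4.66 on the control arrays. Its strong arrays were all above control but not all above mild RNAi, with a log2 difference of 0.92 against control (adjusted p = 0.0265) and 0.69 against mild RNAi (adjusted p = 0.103).

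Role groups here and in the next paragraphs were set after values were seen. Of all 71 neuronal members 46 were called higher against control, so a call is not particular to a role. The genes of arousal and locomotion described next were each called higher under strong RNAi against control. *pdf-1* and *pdf-2* encode pigment dispersing factor peptides, which act through PDFR-1 to promote roaming. *pdf-2* had log2 signals of 8.29, 8.81, 9.23 and 9.69 on the strong arrays, 7.26, 7.43, 8.15 and 7.19 on the mild arrays and 6.97, 7.32, 7.91 and 6.98 on the control arrays. *pdf-1* had 10.28, 10.42, 10.67 and 10.77 on the strong arrays, 9.54, 9.46, 10.12 and 9.78 on the mild arrays and 9.43, 9.48, 9.88 and 9.62 on the control arrays. For both genes every strong array lay above every mild and control array, and array IV was the highest of the mild and of the control group. The log2 difference from control was 1.71 ± 0.31 for *pdf-2* (SE, adjusted p = 0.00415) and 0.93 ± 0.17 for *pdf-1* (adjusted p = 0.00423). *nlp-49*, whose peptide acts on the receptor SEB-3 in arousal, had 10.65, 10.77, 11.23 and 11.29 on the strong arrays, 9.60, 9.68, 10.28 and 9.52 on the mild arrays and 9.45, 9.68, 10.11 and 9.35 on the control arrays. *nlp-12*, a cholecystokinin-like gene of the stretch-sensing neuron DVA that tunes locomotion, had 7.57, 8.09, 8.30 and 8.04 on the strong arrays, 6.72, 6.59, 7.36 and 7.20 on the mild arrays and 6.49, 6.45, 6.99 and 6.75 on the control arrays. Neither gene showed an overlap of strong arrays with the others, and the log2 difference from control was 1.34 for *nlp-49* (adjusted p = 0.00255) and 1.33 for *nlp-12* (adjusted p = 0.00192). *nlp-18*, whose peptides act through the receptor CKR-1 in escape, averaged 9.63 ± 0.48 under strong RNAi, 8.37 ± 0.50 under mild RNAi and 8.33 ± 0.28 in control (SD, n = 4 arrays each), a log2 difference from control of 1.3 (adjusted p = 0.00838 in limma).

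Of 4 genes with a known part in sleep, 3 were higher under strong RNAi against control and *nlp-22* was not called. *nlp-8*, a peptide gene of the sleep neuron ALA, had log2 signals of 5.78, 5.97, 6.95 and 7.24 on the strong arrays, 5.12, 5.01, 5.35 and 4.47 on the mild arrays and 5.31, 4.91, 5.30 and 4.64 on the control arrays. *nlp-14*, an orcokinin-like gene that promotes stress-induced sleep, had 7.70, 7.82, 8.34 and 8.77 on the strong arrays, 6.86, 7.16, 7.27 and 6.22 on the mild arrays and 6.70, 6.72, 6.84 and 6.39 on the control arrays. Strong arrays IV and V carried the highest values of both, and no strong array overlapped with another group. The log2 difference between strong RNAi and control was 1.45 for *nlp-8* (adjusted p = 0.0102), 1.49 for *nlp-14* (adjusted p = 0.0034) and 1.33 for *nlp-15*, a second orcokinin-like gene (adjusted p = 0.00501).

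The 2 genes listed for egg laying were both called higher under strong RNAi. *nlp-3*, which stimulates egg laying from the HSN neurons, had 7.90, 7.90, 8.89 and 9.47 on the strong arrays, 6.98, 7.0, 7.94 and 6.99 on the mild arrays and 6.77, 7.01, 7.51 and 7.22 on the control arrays. Its mild array IV lay above strong arrays I and III, and its log2 difference was 1.41 against control (adjusted p = 0.0173) and 1.31 against mild RNAi (adjusted p = 0.0309). *nlp-7*, which inhibits egg laying, had 8.64, 8.42, 9.09 and 9.39 on the strong arrays, 7.59, 7.70, 7.96 and 7.57 on the mild arrays and 7.49, 7.69, 7.77 and 7.36 on the control arrays. Here no strong array overlapped with another group, and the log2 difference from control was 1.31 ± 0.20 (SE, adjusted p = 0.00158).

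Of 3 genes of learning and olfaction, 2 were higher under strong RNAi against control. *nlp-1*, a gene of the olfactory neuron AWC that shapes odour adaptation, had 5.79, 6.44, 6.73 and 6.97 on the strong arrays, 4.79, 5.47, 5.76 and 5.05 on the mild arrays and 4.56, 5.49, 5.10 and 5.02 on the control arrays, a log2 difference from control of 1.44 (adjusted p = 0.00584). Its strong arrays all lay above the other 8, by little on array I. *snet-1*, whose peptide limits olfactory plasticity in response to pheromone, had 5.33, 5.60, 5.94 and 6.26 on the strong arrays, 4.53, 4.53, 4.95 and 4.97 on the mild arrays and 4.78, 4.42, 4.92 and 5.11 on the control arrays. Its groups did not overlap between strong RNAi and control, with a log2 difference of 0.98 (adjusted p = 0.01). *ntc-1*, which encodes nematocin, the vasopressin and oxytocin relative, had 5.18, 5.85, 6.72 and 6.62 on the strong arrays, 4.98, 5.26, 5.48 and 4.43 on the mild arrays and 4.67, 5.36, 5.43 and 4.96 on the control arrays. Strong array I lay within the control range, and the difference, of the same size as that of *snet-1* at 0.98, had a wider 95% interval of 0.26 to 1.70 and did not pass (adjusted p = 0.0702).

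*nlp-40* is known for its release from the intestine, where it times the contraction of the enteric muscles through the receptor AEX-2. It had 9.19, 9.01, 9.33 and 9.24 on the strong arrays, 8.68, 8.80, 8.77 and 8.74 on the mild arrays and 8.81, 8.85, 8.66 and 8.65 on the control arrays. These replicates lay close together, strong arrays did not overlap with the others, and the log2 difference from control of 0.45 was the narrowest of the 46 calls (adjusted p = 0.0146). Among 11 intestine markers 3 were higher under strong RNAi and 0 lower, beside 8.04% and 5.62% of all probe sets. Their median log2 difference from control was 0.43.

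**Figure D2:**
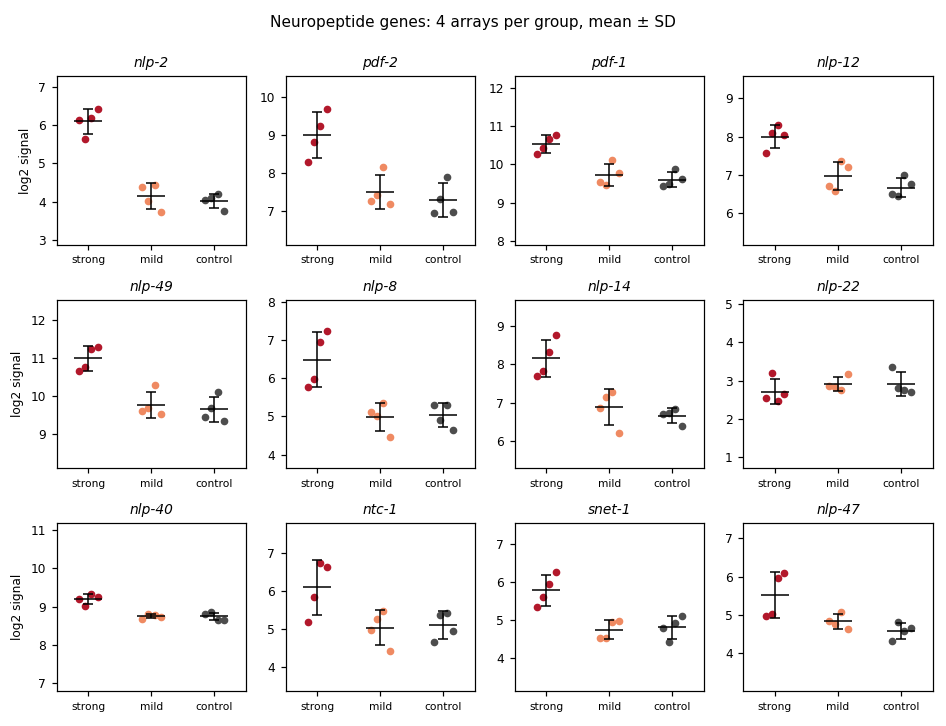
Log2 signal on each of the 4 arrays of strong RNAi, mild RNAi and control for 12 neuronal genes with known roles, with the mean and SD as lines, each panel spanning the same height in log2 units. Strong arrays stand apart for *nlp-2*, *pdf-1*, *pdf-2*, *nlp-12*, *nlp-49*, *nlp-8* and *nlp-14*, while those of *nlp-22* and *ntc-1* overlap with control.

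The remaining called members have less settled roles. After *nlp-2* and *pdf-2*, the next log2 differences from control were those of *nlp-68* (1.71, adjusted p = 0.0106), *nlp-35* (1.63, adjusted p = 0.00323), *nlp-80* (1.51, adjusted p = 0.0113) and *nlp-13* (1.5, adjusted p = 0.00447). *nlp-68* spread most between strong replicates, with 8.01, 7.88, 9.25 and 9.95 on the strong arrays, 6.91, 7.02, 7.48 and 6.95 on the mild arrays and 6.88, 7.14, 7.28 and 6.97 on the control arrays. All of its strong arrays nonetheless lay above the other 8. *nlp-13* and *nlp-9* are neighbouring protein-coding genes, and *nlp-9* differed by 1.27 (adjusted p = 0.00533). The allatostatin-like genes *nlp-5* and *nlp-6* differed by 1.28 and 1.19 (adjusted p = 0.00329 and 0.00395). Between 1.04 and 1.48 also lay *nlp-55* (1.48), *nlp-46* (1.44), *nlp-11* (1.37), *nlp-10* (1.32), *nlp-64* (1.24), *nlp-71* (1.22), *nlp-81* (1.22), *nlp-50* (1.20), *nlp-21* (1.19), *nlp-52* (1.16), *nlp-66* (1.16), *nlp-43* (1.15), *nlp-53* (1.12), *nlp-99* (1.08) and *nlp-79* (1.04), with adjusted p between 0.0025 and 0.0317. Smaller differences that passed were those of *nlp-70* (0.94), *nlp-20* (0.83), *nlp-19* (0.78), *nlp-41* (0.77), *nlp-51* (0.76), *nlp-62* (0.76), *nlp-82* (0.76), *nlp-58* (0.66) and *nlp-61* (0.57), with adjusted p between 0.00171 and 0.0416. Strong and control arrays overlapped for *nlp-58* and *nlp-79* among the 46. The call of *nlp-58* was lost under 8 of 20 other settings, those of *nlp-47*, *nlp-62* and *nlp-66* under 7 and that of *nlp-82* under 6, whereas 35 of the 46 were lost under none.

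Dim probe sets carried few of the calls. A control mean under 3.01, the 40th percentile of all values, was found for 8 neuronal members, of which *nlp-19* and *nlp-82* were called. *nlp-19* had 3.35, 2.96, 3.56 and 3.92 on the strong arrays, 2.92, 2.98, 2.72 and 2.71 on the mild arrays and 2.62, 2.80, 2.52 and 2.69 on the control arrays. Of the 25 members not called, 18 had a positive difference, 6 were dim in control, and their log2 differences ran from −0.33 for *nlp-39* to 0.98 for *ntc-1*. The other members not called included *nlp-36*, a bright probe set on which groups hardly differed, with means of 10.03 ± 0.12 under strong RNAi, 10.11 ± 0.14 under mild RNAi and 10.10 ± 0.24 in control (SD, n = 4 arrays each, limma log2 difference from control −0.08, 95% interval −0.37 to 0.22). *nlp-119*, *nlp-90* and *nlp-91*, which follow each other in the genome, differed by −0.14, −0.21 and 0.09. *nlp-17* and *nlp-88* had differences of 0.86 and 0.85 that did not pass (adjusted p = 0.069 and 0.0685).

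**Figure D3:**
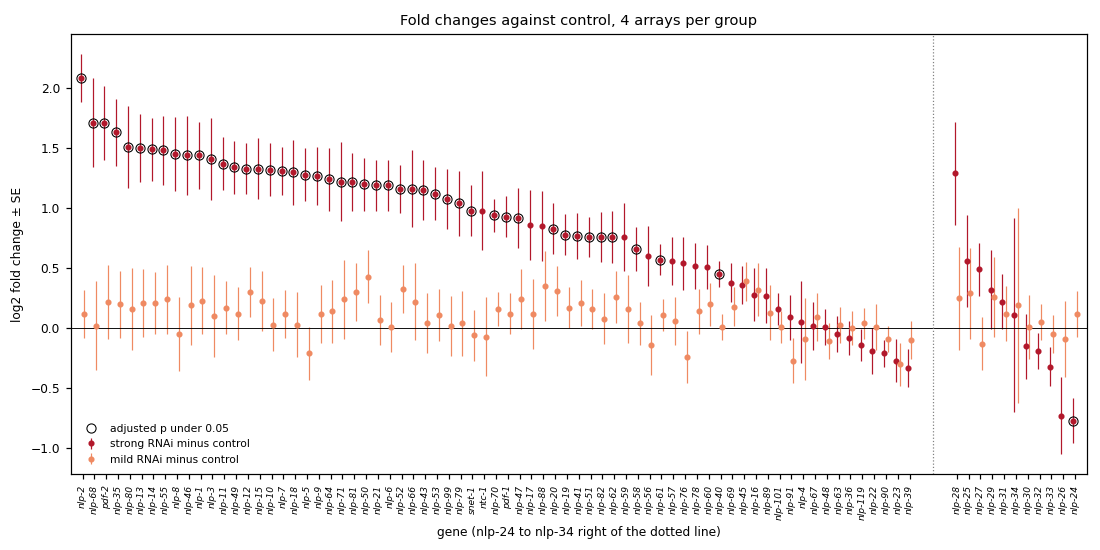
Log2 fold change of strong RNAi against control (dark red) and of mild RNAi against control (orange) with standard errors for the 82 genes, 4 arrays per group, *nlp-24* to *nlp-34* right of the dotted line. Circles mark an adjusted p under 0.05 in limma: 46 neuronal genes and *nlp-24* under strong RNAi, and 0 genes under mild RNAi.

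Under mild *nuo-5* RNAi no neuropeptide gene passed. Of the 71 neuronal members 0 were called higher and 0 lower against control in limma, beside 0.0136% of all probe sets called higher and 0.00341% called lower. At an unadjusted p under 0.05 stood 1 member, beside 980 of 29317 probe sets. The median log2 difference was 0.12, beside 0.00 over all probe sets, with a range of −0.30 for *nlp-23* to 0.43 for *nlp-50*. Positive were 59 of 71, beside 14769 of all probe sets. On mild array IV 58 of the 71 lay above the control mean, and on mild arrays I, III and V 31, 47 and 32. *nlp-45* was the one with the unadjusted p of 0.0293, and in it alone the 4 mild arrays all lay above the 4 control arrays, as they did in 1.38% of all probe sets. Its log2 signals were dim, with 2.46, 2.23, 2.99 and 2.65 on the strong arrays, 2.74, 2.54, 2.74 and 2.45 on the mild arrays and 2.14, 2.44, 2.23 and 2.09 on the control arrays. The 95% intervals of the differences between mild RNAi and control spanned −0.83 to 0.97 over the 71 genes, with a median half-width of 0.47. For each of the 46 genes called under strong RNAi, the upper 95% bound of the mild difference lay under the difference measured for strong RNAi. Both differences share the control arrays, and the 46 were picked for their strong difference. Between strong and mild RNAi directly, 8 of these 46 were not called.

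Strong and mild RNAi were compared directly, and here too neuronal members were higher under strong RNAi. Called higher were 39 of 71 and lower 0, where 5.82% of all probe sets were higher and 4.34% lower, with a median log2 difference of 0.78 (−0.04 over all probe sets). Of the genes called, 38 were called in both strong comparisons, which share the strong arrays, 8 against control alone and 1, *nlp-76*, against mild RNAi alone. *nlp-76* had 3.98, 4.71, 3.99 and 4.87 on the strong arrays, 3.81, 3.35, 3.58 and 3.69 on the mild arrays and 4.03, 4.07, 3.45 and 3.85 on the control arrays, a log2 difference of 0.78 against mild RNAi (adjusted p = 0.0408). Its strong arrays overlapped with control but not with mild RNAi, and its call was lost under 14 of 20 other settings. The count of 39 depended on single arrays, and was 21 without mild array V, 22 without strong array IV, 25 without strong array V and 24 when the control arrays were left out of the fit.

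Arrays of a group did not carry the pattern equally. Set against the control mean, the 71 neuronal members had median log2 differences of 0.52, 0.77, 1.14 and 1.44 on the strong arrays, −0.03, 0.08, 0.46 and −0.01 on the mild arrays and −0.13, 0.00, 0.18 and −0.03 on the control arrays. Among the 46 called genes, strong array V was the highest of its group in 39 and array IV in 7, and the lowest was array I in 32 and array III in 14. Mild array IV stood apart from the rest of its group. It lay above every control array in 52 of the 71 genes, beside 22.1% of all probe sets. Strong arrays I, III, IV and V did so in 50, 56, 58 and 61 genes, beside 25.9%, 23.2%, 25.1% and 27.4% of all probe sets. Mild arrays I, III and V did so in 11, 10 and 9 genes, beside 23.7%, 18.5% and 20.0% of all probe sets. It was the highest mild array in 43 of the 46 called genes. Control array IV was likewise the highest control array in 33 of the 46. Between arrays of the same number, the median difference between strong RNAi and control was 0.67, 0.74, 1.01 and 1.39, and that between mild RNAi and control 0.15, 0.10, 0.24 and 0.00. Without any single array, 36 to 50 neuronal members were called between strong RNAi and control.

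Some of the genes that make and release neuropeptides were also higher under strong RNAi. Of 22 processing and release genes, 8 were called higher and 0 lower against control, beside 8.04% and 5.62% of all probe sets, with a median log2 difference of 0.52. *egl-3*, the proprotein convertase that cuts precursors, averaged 10.90 under strong RNAi, 9.69 under mild RNAi and 9.66 in control, a log2 difference of 1.23 from control (adjusted p = 0.00175). Its chaperone *sbt-1* differed by 1.42 (adjusted p = 0.00461) and the carboxypeptidase gene *egl-21*, which trims the cut ends, by 1.33 (adjusted p = 0.003). *pghm-1* and *pgal-1*, which encode single-step amidating enzymes, differed by 1.27 and 0.88 (adjusted p = 0.00823 and 0.0152). The other amidating gene of the list, *pamn-1*, was not called at −0.36 (adjusted p = 0.343). Nor were the convertase genes *aex-5* (0.52, adjusted p = 0.0502), *kpc-1* (0.32) and *bli-4* (−0.19) and the carboxypeptidase genes *cpd-2* (0.37) and *cpd-1* (0.02). Of dense core vesicle genes, *ric-19* differed by 1.14 (adjusted p = 0.00107), *ida-1* by 1.09 (adjusted p = 0.00966) and *ric-7*, needed for neuropeptide release, by 0.52 (adjusted p = 0.0299). *unc-31*, which primes dense core vesicles for release, was not called at 0.54 (adjusted p = 0.0692). Under mild RNAi 0 of the 22 were called against control, with a median of 0.04. Of all probe sets 0.0136% were called higher and 0.00341% lower there, so a count of 0 says little about this list. Between strong and mild RNAi 7 of the 22 were called higher. *ric-7* was not among them (0.13, adjusted p = 0.653), and it differed by 0.40 between mild RNAi and control.

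Neuropeptide receptor genes were measured as well. Of 18 receptor genes, 4 were higher under strong RNAi against control and 0 lower, beside 8.04% and 5.62% of all probe sets, with a median log2 difference of 0.40. In control 8 of the 18 were dim, *npr-22* among them. The 4 called higher were *sprr-1*, a relative of the insect sex peptide receptor (1.05, adjusted p = 0.00969), *ckr-2*, a cholecystokinin-like receptor (0.93, adjusted p = 0.0123), *npr-17*, an opioid-like receptor gene (0.67, adjusted p = 0.0442) and *npr-22* (0.57, adjusted p = 0.0407). Of receptor genes named above with arousal peptides, *pdfr-1* (0.40, adjusted p = 0.143) and *seb-3* (0.71, adjusted p = 0.0631) did not pass. Nor did the NLP-40 receptor gene *aex-2* with 0.18. Among 7 peptide-degrading enzymes the neprilysin gene *nep-22* was higher (0.87, adjusted p = 0.0236), while *pcp-1* (−0.84, adjusted p = 0.0271) and the neprilysin gene *nep-1* (−0.55, adjusted p = 0.0492) were lower. In mild RNAi 0 receptors and 0 of these enzymes were called against control, beside 0.0136% of all probe sets higher and 0.00341% lower. Between strong and mild RNAi 1 of the 18 receptors was called, *sprr-1* (1.10, adjusted p = 0.0112). *npr-17*, with a control mean of 3.04, differed by 0.20 there (adjusted p = 0.601) and by 0.47 between mild RNAi and control.

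Other neuropeptide families and general neuron markers were set beside the *nlp* genes as a description. Against control, 8.04% of all probe sets were called higher under strong RNAi and 5.62% lower, the background for the counts given here. Of 31 *flp* genes 27 were higher under strong RNAi and 0 lower, with a median log2 difference of 1.21 from control. Of 40 *ins* genes 9 were higher and 1 lower, with a median of 0.11. Of 17 neuron markers, which encode mostly synaptic and panneuronal proteins, 3 were higher and 0 lower with a median of 0.40. These were the syntaxin-binding gene *unc-18* (1.11), *egl-3*, which is also among the processing genes, and the synaptotagmin gene *snt-1* (0.52). Strong and control arrays of *snt-1* overlapped (adjusted p = 0.0474). The markers not called included *rgef-1*, *unc-119* and *rab-3* (0.43, 0.38 and 0.22, adjusted p = 0.265, 0.311 and 0.558). The neuron markers had medians of −0.05, 0.32, 0.48 and 0.77 on the strong arrays, of −0.16 to 0.22 in the mild group and of −0.07 to 0.05 in the control group. The median of the 71 neuronal members minus that of the neuron markers was 0.57, 0.45, 0.66 and 0.67 on the strong arrays, with −0.17 to 0.24 in the mild group and −0.08 to 0.13 in the control group, so the strong arrays did not overlap with the others.

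Markers of other tissues and of stage also moved with strong RNAi, and their part in the neuropeptide result was not tested. Against control, 7 of 11 body muscle markers and 5 of 13 epidermis markers were lower and 0 higher, with median log2 differences of −0.66 and −1.19. The 5 epidermis markers called lower were *dpy-13*, *rol-6*, *sqt-3*, *grd-13* and *dpy-5*. Of the 13, 2 had a positive difference, *elt-1* (0.30) and *elt-3* (0.32), and *lin-26* stood at −0.10, none of them called. Of all probe sets, 5.62% were called lower and 8.04% higher in this comparison. Of 18 molting genes, which share *nhr-23* with the epidermis markers, 10 were lower and 0 higher, and their median was −1.19, −0.35, −1.58 and −2.49 on the strong arrays, with −0.74 to 0.30 in the mild group and −0.50 to 0.37 in the control group. Of 19 oocyte and adult genes 10 were higher and 0 lower, with a median of 1.72. On strong array III, where the oocyte and adult genes stood at −0.03 and the molting genes at −0.35, the neuronal members stood at 0.77, and 56 of 71 lay above every control array. Without that array 45 neuronal members and 4907 of 29317 probe sets were called against control. With all 12 arrays these counts were 46 and 4005. This is 1 array, and a link between these lists and the neuronal members was not tested.

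**Figure D4:**
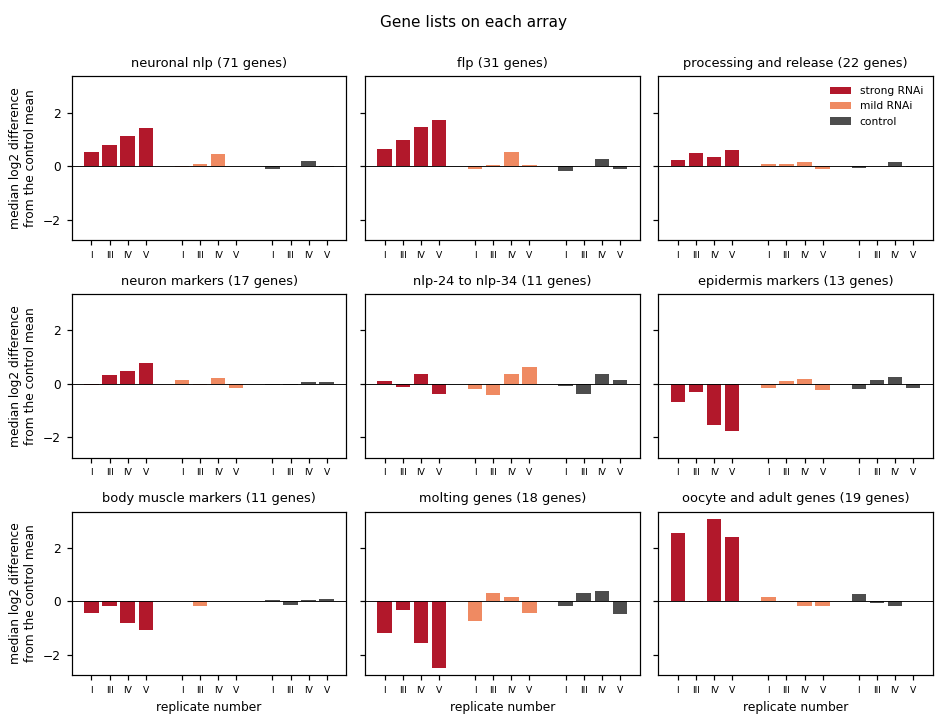
Median log2 difference from the control mean on each array for 9 gene lists, with strong RNAi left, mild RNAi in the middle and control right in each panel. Bars start at 0. On strong array III the neuronal *nlp* median was 0.77 and the oocyte and adult median −0.03, and a link between the lists was not tested.

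Among the epidermal antimicrobial genes *nlp-24* alone was called against control in the fit without a block. Of the 11 genes *nlp-24* to *nlp-34*, 0 were higher and 1 was lower under strong RNAi against control, beside 8.04% and 5.62% of all probe sets, with a median log2 difference of 0.11. Under mild RNAi 0 of the 11 were called, beside 0.0136% of all probe sets higher and 0.00341% lower, with a median of 0.12. None of them was dim. The median of 13 epidermis markers stood at −0.69, −0.31, −1.56 and −1.79 on the strong arrays, with −0.26 to 0.17 in the mild group and −0.22 to 0.26 in the control group, and its part in these values was not tested. The median does not describe every marker, as 5 were called lower and 8 were not called. Among *nlp-24* to *nlp-34*, the gene called lower was *nlp-24*. It encodes peptides with opioid-like YGGY motifs that are known to stimulate feeding in starved animals through NPR-17. It had log2 signals of 12.26, 12.69, 12.05 and 11.70 on the strong arrays, 13.16, 12.77, 13.22 and 13.13 on the mild arrays and 13.03, 12.71, 12.95 and 13.09 on the control arrays. All strong arrays lay below the others, as in 8.51% of all probe sets for strong RNAi against control, although array III hardly differed between strong RNAi and control. The log2 difference was −0.77 ± 0.19 against control (SE, adjusted p = 0.019) and −0.89 against mild RNAi (adjusted p = 0.0128). The call against control was lost without control array V (−0.72, adjusted p = 0.0567), strong array IV (−0.73, adjusted p = 0.057) or strong array V (−0.61, adjusted p = 0.052).

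*nlp-34*, *nlp-31*, *nlp-30*, *nlp-29*, *nlp-28* and *nlp-27* follow each other as neighbouring protein-coding genes and form the *nlp-29* cluster. In the fit without a block 0 of the 6 were called, and their median log2 difference between strong RNAi and control was 0.27. *nlp-29*, the gene most used as a reporter of epidermal defence, had 9.75, 9.87, 10.45 and 9.79 on the strong arrays, 9.58, 8.98, 10.32 and 10.72 on the mild arrays and 9.55, 9.13, 9.99 and 9.91 on the control arrays. The groups overlapped, with a difference of 0.32 between strong RNAi and control (95% interval −0.40 to 1.04, adjusted p = 0.593). *nlp-28* had 9.50, 9.02, 9.82 and 9.99 on the strong arrays, 8.70, 7.35, 9.20 and 8.90 on the mild arrays and 8.45, 7.10, 8.91 and 8.69 on the control arrays. Its strong arrays all lay above control, array III was the lowest of each group, and the difference of 1.29 (95% interval 0.35 to 2.23) did not pass (adjusted p = 0.068). It was called higher with the replicate number as a block (1.29, adjusted p = 0.00191), with array weights (1.49, adjusted p = 0.0273) and without mild array III (adjusted p = 0.0337) or strong array III (adjusted p = 0.0487). *nlp-34* varied most of all members, with 8.53, 7.12, 9.18 and 5.91 on the strong arrays, 6.34, 6.41, 9.04 and 9.26 on the mild arrays and 7.04, 6.86, 8.69 and 7.71 on the control arrays. Its range within each group was wider than any difference between the means, which was 0.11 between strong RNAi and control (95% interval −1.65 to 1.87). *nlp-27*, *nlp-30* and *nlp-31* differed by 0.49, −0.15 and 0.22. Between strong and mild RNAi the block called *nlp-28* (1.04, adjusted p = 0.00746) and *nlp-27* (0.62, adjusted p = 0.0393). Outside the cluster, *nlp-26* (−0.73, adjusted p = 0.153), *nlp-33* (−0.32), *nlp-32* (−0.19) and *nlp-25* (0.56, adjusted p = 0.386) were not called.

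**Figure D5:**
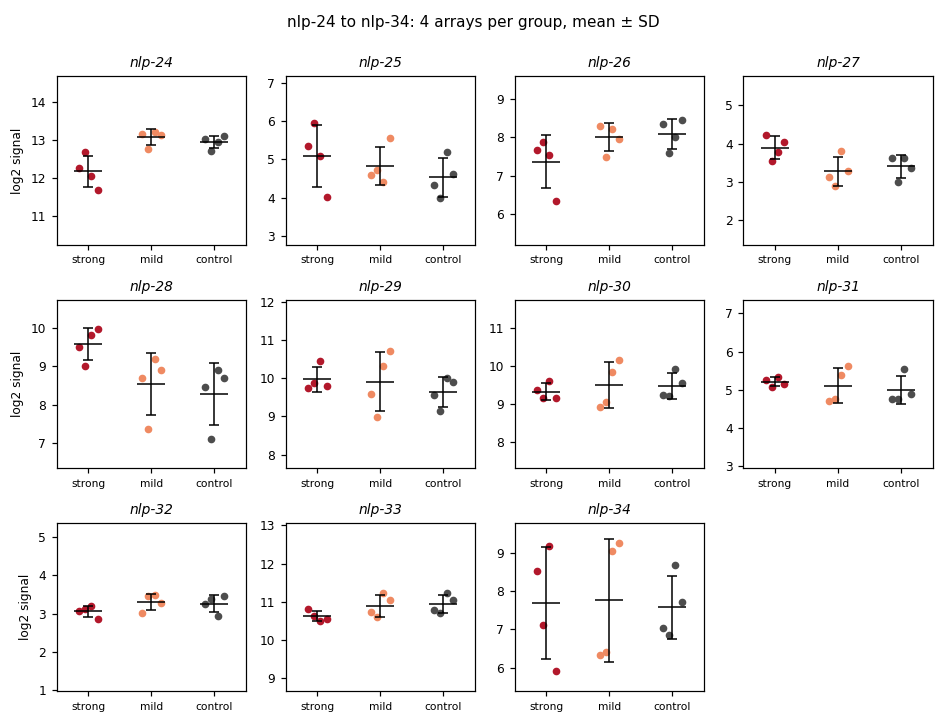
Log2 signal on each of the 4 arrays of strong RNAi, mild RNAi and control for *nlp-24* to *nlp-34*, with the mean and SD as lines, each panel spanning the same height in log2 units. The strong arrays of *nlp-24* lie below the others, those of *nlp-28* lie above control, and *nlp-34* spreads widely within every group.

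The signalling genes that control these antimicrobial peptides were measured as well. Of 21 epidermal immune signalling genes, 6 were higher under strong RNAi against control and 0 lower, beside 8.04% and 5.62% of all probe sets. Their median log2 difference was 0.47. *sta-2*, the STAT-like factor that drives *nlp-29*, averaged 7.68 under strong RNAi, 6.48 under mild RNAi and 6.09 in control, a difference of 1.59 (adjusted p = 0.00279). *nipi-3*, a pseudokinase gene of the same response, and *cebp-1*, a transcription factor gene that NIPI-3 holds down, both differed by 1.28 (adjusted p = 0.00162 and 0.000379). The adaptor gene *tir-1*, upstream of the p38 kinase, differed by 0.78 (adjusted p = 0.00139), and the phospholipase gene *egl-8* and the TGF-beta receptor gene *sma-6* by 0.59 each (adjusted p = 0.00372 and 0.025), while *pmk-1*, the p38 kinase gene itself, was not called at 0.42 (adjusted p = 0.0544). The list holds genes that neurons and other tissues also use, and *elt-3* is also among the epidermis markers. Of 11 caenacin genes, a related family of epidermal antimicrobial peptides, 0 were called in any of the comparisons, with a median of 0.13 between strong RNAi and control.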

How the data were processed

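RNA of 12 samples (strong *nuo-5* RNAi, mild *nuo-5* RNAi and control, 4 each) was measured on Affymetrix Gene ST arrays for *C. elegans*. The authors processed the scans by RMA (background correction, quantile normalization, 1 summary per probe set), and the deposited values are on the log2 scale. The genome build was not given in the sources used here, so no coordinates are printed, and a RefSeq gene table served only for names and gene neighbours.

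The 29317 probe sets were used as deposited. The platform annotation gives 25546 of them exactly 1 symbol, 646 several and 3125 none. Where a gene had several probe sets, the one with the highest mean over 12 arrays stood for it. Groups came from the sample labels. One limma 3.58.1 fit (R 4.3.3) of 3 group means over 12 arrays, with eBayes (prior degrees of freedom 3.51, residual 9) and Benjamini-Hochberg adjustment over all probe sets, gave every adjusted p, with a threshold of 0.05. Each p-value sets a group difference against the spread between these biological replicates, as estimated with eBayes. *nuo-5* was also compared by exact permutation tests, which exchange arrays without regard to replicate number. The number of arrays limits precision.

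Members and gene lists were chosen with earlier results of these data known. Named were all called members, *nlp-24* to *nlp-34*, 8 members with the brightest control means, 9 genes set by name and the extremes of each comparison, and from other lists up to 4 called genes per direction, with further genes added after their values were seen. Role groups were also set after values were seen.

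Other settings tried were a block for the replicate number, a fit of the 8 arrays of each comparison, a second quantile normalization, median centring of each array, a filter that keeps probe sets above 3.01 on at least 4 arrays, an intensity trend with robust estimation, array weights, averaging a gene's probe sets, and omitting single arrays. Deviations from the group means were compared between mild and control arrays of the same number (r = 0.344, 0.247, 0.274 and 0.20 over probe sets), so each pair exceeded 0.1 and the numbers were read as pairing these arrays, while the fit behind every adjusted p holds no block and the block was run as an alternative. Strong and control arrays gave 0.311, 6.78e-05, 0.078 and 0.121, strong and mild arrays 0.233, 0.121, 0.036 and 0.0369, so the numbers were not read as pairing the strong arrays.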

Additional observations from a re-analysis of the deposited data

Results flagged for a closer look

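Of 186 groups of 4 arrays over 62 named members, 10 held an array that stood far from the other 3 (Dixon's test at the 95% level), where chance gives about 1 in 20. The count is thus close to what chance alone gives, and the cases are listed as a description. Mild array IV accounted for 5 of them. It read 7.94 for *nlp-3* (6.98 to 7.0 on the other mild arrays), 8.49 for *nlp-9* (7.78 to 7.79), 7.25 for *nlp-13* (6.59 to 6.62) and 6.97 for *nlp-15* (6.24 to 6.25), and it was low for *nlp-36* at 9.89 (10.18 on each of the others). Control array IV read 8.11 for *nlp-9* (7.73 to 7.80 on the other control arrays), 5.54 for *nlp-31* (4.75 to 4.89) and 6.11 for *nlp-81* (5.00 to 5.13). Control array I was low for *nlp-5* at 3.81 (4.14 to 4.21), and strong array IV was high for *nlp-29* at 10.45 (9.75 to 9.87 on the other strong arrays).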

How the results depend on the processing

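In 20 alternative settings no difference of a named member turned its direction past the threshold. The count of 46 neuronal genes higher under strong RNAi against control ran from 41 to 53 in 8 settings and from 36 to 50 without 1 array. Between strong and mild RNAi the count of 39 was 24 with only the 8 arrays compared, a fit with fewer samples, 34 to 47 in the other settings and 21 to 45 without 1 array. Against control, 0 neuronal and 0 epidermal members were called under mild RNAi in every setting. All probe sets together gave at most 5 calls there in any setting, so these zero counts say little about the members. With the replicate number as a block, 51 neuronal members were called for strong RNAi against control and 44 for strong against mild RNAi. For the epidermal genes the block gave 2 calls against control, *nlp-24* lower and *nlp-28* higher (1.29, adjusted p = 0.00191), and 3 against mild RNAi, with *nlp-27* and *nlp-28* higher (0.62 and 1.04, adjusted p = 0.0393 and 0.00746). Array weights gave 2 epidermal calls against control, with *nlp-28* again higher (adjusted p = 0.0273). Without 1 array the epidermal count was 0 to 2 against control and 1 to 2 against mild RNAi. It was 2 against control without mild array III (*nlp-28*, adjusted p = 0.0337) or strong array III (adjusted p = 0.0487). The cause of these shifts was not tested. The *nuo-5* difference of −1.02 between mild RNAi and control was −1.02 with the block (adjusted p = 0.152), −1.02 with only the 8 arrays (0.181), −1.04 after quantile normalization (0.0634), −1.0 after centring (0.0707), −1.02 without dim probe sets (0.0517) and −1.11 to −0.94 without 1 array, all short of the threshold. With 4 arrays per group and a median SD of 0.41 over neuronal members under strong RNAi, 0.30 under mild RNAi and 0.24 in control, the number of arrays limits the precision.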
